A study of Mus musculus with 18 samples.

Results

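Chromatin sites that became more accessible in regulatory T cells (Tregs) lacking CHD8 were examined by ATAC-seq, an assay of chromatin open to a transposase. Peaks were selected on their ATAC-seq levels in TPM, a read count scaled to peak length and to the library total. A peak was called gained when its level was at least 2-fold higher than in the wild-type (WT) mouse in each of 2 Chd8-/- mice, which is a log2((KO + 0.84)/(WT + 0.84)) of at least 1 in both. Peaks on chromosomes 1 to 19 were considered, without chromosome 14 from 40 to 55 Mb. This left 79223 of the 81800 peaks in the table, and 1294 of them (1.63%) were gained. The mirrored rule, a log2 change of -1 or lower in both mice, held for 401 peaks (0.506%). These values chose the peaks, so they are given as a description and without a test.

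The ATAC-seq table held 1 column for the WT mouse, a male, and 1 column for each Chd8-/- mouse, a male and a female, and each column name matched 2 deposited libraries. CD4+YFP+ Tregs had been sorted from the spleens of mice 5 to 7 weeks old. The genotype label was CHD8flox/floxFoxp3YFP-Cre/+ for WT and CHD8Flox/FloxFoxp3YFP-Cre for Chd8-/- samples, so by label both groups carried floxed Chd8 and a Foxp3-driven Cre. The paper instead describes its WT mice as Chd8+/+ with the Foxp3-driven Cre, and gives the Cre/+ form only for females. Label and paper thus disagree, also for the male WT mouse of the ATAC-seq, and which genotype holds is not settled here. Every sample was labelled as given an injection of Poly IC. CHD8 chromatin immunoprecipitation sequencing (CHIP-seq) of Tregs from 2 WT mice and RNA sequencing (RNA-seq) of 2 WT and 2 Chd8-/- libraries, from 1 male and 1 female of each genotype, were used beside the ATAC-seq. Per the methods, the CHIP-seq used splenic CD4+CD25+ Tregs of C57B6/J mice, while a figure legend names sorted YFP+ cells. The CHIP-seq cells may thus differ in strain and in isolation from those of the ATAC-seq. Since a single WT column enters both changes, the WT error is shared by the 2 comparisons and cannot be estimated here. The files hold TPM rounded to 0.1 and no read counts, so the depth behind each peak is unknown.

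In ATAC-seq, the Tn5 transposase inserts adapters where DNA is not covered by nucleosomes, so a peak marks an open site such as a promoter or an enhancer. CHD8 is an ATP-dependent chromatin remodeler of the CHD family that binds near many active promoters, and it is also known as a repressor of p53 and of Wnt target genes. Tregs depend on the transcription factor Foxp3 to restrain other T cells.

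In the RNA libraries, Foxp3 RNA was at 203 and 215 TPM in WT and 232 and 205 TPM in Chd8-/- Tregs, and Il2ra, which encodes CD25, was between 860.5 and 1156 TPM in all 4. Both Treg markers were thus present in each library, and the genotypes overlapped in each of them. Chd8 RNA was at 24.7 and 27.6 TPM in WT and 14.9 and 11.4 TPM in Chd8-/- libraries. Both Chd8-/- libraries lay below both WT libraries, as they did in 27.8% of all genes tested. The change missed the threshold (limma adjusted p = 0.455). Any RNA from outside the deleted exons would count toward this value, and where the remaining Chd8 RNA came from was not tested.

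The peaks were mapped to mm39, for which no genome was at hand, so no sequence is shown for a peak and no gene was assigned from its position. Promoters are shown for 2 genes, Cdkn1a and Ccng1, because both are classical targets of the transcription factor p53. Gained peaks lay in windows set by CHIP-seq peaks annotated to these genes, and their distance from the genes themselves was not measured. Cdkn1a encodes the cell cycle inhibitor p21, and Ccng1 encodes cyclin G1. The sequences come from RefSeq, build GRCm38.p6, from 250 bases before to 50 bases after a start site, and were not matched to the peaks. Capitals mark a match to the p53 consensus of 20 letters with at most 1 mismatch in Cdkn1a promoter 1 (chr17:29090729-29091028, plus strand) and Ccng1 (chr11:40755237-40755536, minus strand), and the GC-box letters GGGCGGG in Cdkn1a promoter 2 (chr17:29093519-29093818, plus strand).
Cdkn1a promoter 1: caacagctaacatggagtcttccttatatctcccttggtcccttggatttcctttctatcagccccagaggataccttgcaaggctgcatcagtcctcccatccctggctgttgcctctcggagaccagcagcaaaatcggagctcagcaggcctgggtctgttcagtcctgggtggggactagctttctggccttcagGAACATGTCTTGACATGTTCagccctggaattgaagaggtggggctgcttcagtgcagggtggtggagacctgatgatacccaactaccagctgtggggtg
Cdkn1a promoter 2: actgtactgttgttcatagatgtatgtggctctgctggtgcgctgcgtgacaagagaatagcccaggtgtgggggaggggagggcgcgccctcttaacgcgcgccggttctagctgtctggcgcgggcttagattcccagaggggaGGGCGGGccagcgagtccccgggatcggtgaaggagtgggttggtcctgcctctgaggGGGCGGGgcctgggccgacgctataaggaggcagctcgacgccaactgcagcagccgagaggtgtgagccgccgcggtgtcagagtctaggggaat
Ccng1 promoter: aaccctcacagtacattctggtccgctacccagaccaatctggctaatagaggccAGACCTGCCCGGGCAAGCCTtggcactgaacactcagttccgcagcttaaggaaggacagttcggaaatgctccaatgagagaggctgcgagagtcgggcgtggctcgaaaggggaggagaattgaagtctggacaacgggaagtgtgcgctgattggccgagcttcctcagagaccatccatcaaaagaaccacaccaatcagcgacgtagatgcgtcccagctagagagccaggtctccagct
The p53 consensus reads the same on both strands, and 29 of 32851 promoters (0.0883%) held such a match. It began 51 bases before the start site in Cdkn1a and 195 bases before it in Ccng1. The letters GGGCGGG, on either strand, stood in 25.6% of all promoters. A match of letters is a description and does not show that a factor binds there.

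The gained peaks were weak sites in WT Tregs. Their WT level had a median of 1.8 TPM and ran from 0.0 to 15.5 TPM. Their level ran from 1.4 to 34.9 TPM in Chd8-/- mouse 1 and from 1.6 to 34.8 TPM in mouse 2, with a median of 5.9 TPM in each. The median log2 change was 1.28 in mouse 1 and 1.31 in mouse 2. Over all peaks considered, the medians were 8.3 TPM in WT, 8.7 TPM in mouse 1 and 8.3 TPM in mouse 2. The typical gained peak therefore stayed below the typical peak in the knockout, and 295 of the 1294 (22.8%) reached the median of all peaks in both mice. The WT level was at most 1 TPM in 285 of the gained peaks, above 1 and up to 2 TPM in 475, above 2 and up to 5 TPM in 454, and above 5 TPM in 80. A level of 0.0 TPM in WT was listed for 3 of them.

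**Figure D1:**
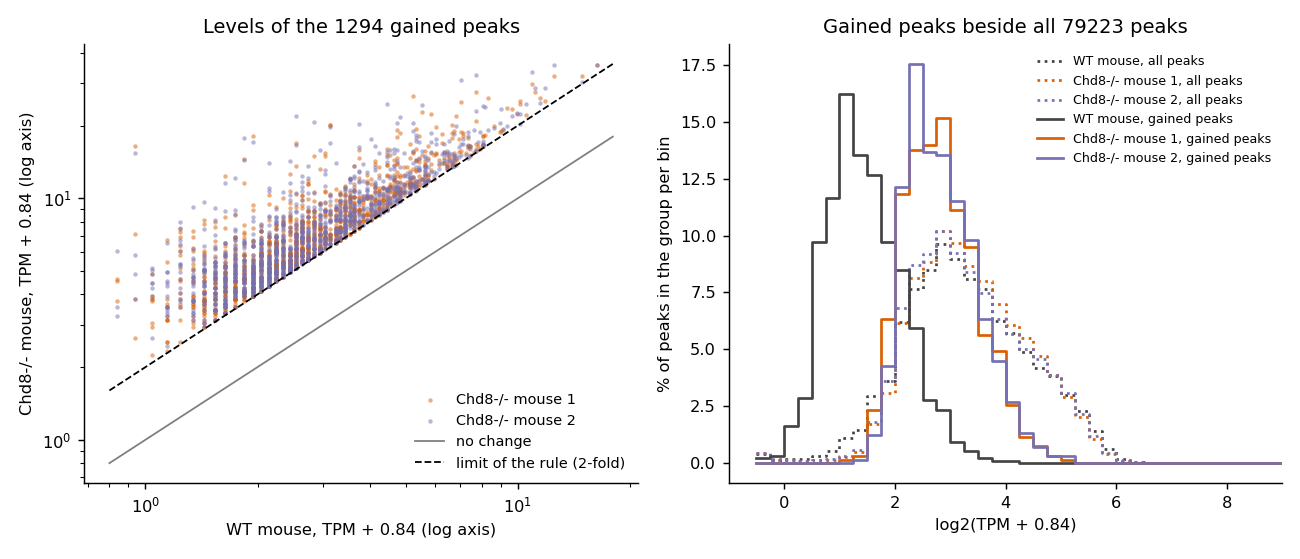
The left panel plots each of the 1294 gained peaks by its level in the WT mouse (x axis, TPM + 0.84, log scale) and in each Chd8-/- mouse (y axis, TPM + 0.84, log scale), with a grey line for no change and a dashed line for the 2-fold limit. The right panel gives the percentage of peaks per bin of log2(TPM + 0.84) for gained peaks (solid) and all 79223 peaks (dotted), and the gained peaks sit left of all peaks in WT (median 1.8 against 8.3 TPM) and closer to them in both Chd8-/- mice (median 5.9 TPM).

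Most gains were moderate. The smaller of the 2 log2 changes was under 1.5 in 1078 gained peaks (83.3%), from 1.5 to under 2 in 173, and at least 2 in 43, and 2 peaks passed 3. The Chd8-/- mice gave like values at these sites: the log2 difference between mouse 1 and mouse 2 had a median of -0.02 and a standard deviation of 0.26, and 2 gained peaks differed by 1 or more, although the rule itself asks for a gain in both. Peaks just inside the limit included chr13:20320954-20321263, with log2 changes of 1.32 and 1.00, and peaks just outside it included chr3:100343963-100344518, with 1.21 and 1.00 (0.9965 before rounding). If every value were off by the largest rounding error of 0.05 TPM in the least favourable direction, 1160 of the 1294 (89.6%) would still pass.

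How many peaks count as gained depends on the scale. With a pseudocount of 0.1 TPM the number was 2479, and with the median ATAC value of 8.5 TPM it was 19. Quantile normalization, which gives the 3 columns the same distribution, left 615 gained and 607 lost peaks, so the share of gained among all changed peaks went from 76.3% to 50.3%. All 615 were among the 1294. The first quartile of all peaks was 4.9 TPM in WT, 5.3 TPM in mouse 1 and 5.1 TPM in mouse 2.

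The gained peak with the largest change, chr8:3853225-3853374, had 0.1 TPM in WT and 15.7 and 14.6 TPM in the Chd8-/- mice, log2 changes of 4.14 and 4.04. At chr4:150134181-150134389 the level was 1.1 TPM in WT and 17.2 and 16.3 TPM in the Chd8-/- mice. At chr4:31941573-31942201 it was 1.0 TPM in WT and 13.7 and 17.0 TPM in the Chd8-/- mice. These sites went from close to undetected to well above the median of all peaks. In the 10 peaks with the largest changes, WT values ran from 0.1 to 2.3 TPM and Chd8-/- values from 5.0 to 21.0 TPM. These 10 lay on 7 chromosomes.

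The gained peaks with the highest level in Chd8-/- Tregs were already open in WT. The highest, chr17:29312510-29313034, had 15.5 TPM in WT and 34.9 and 34.8 TPM in the Chd8-/- mice. At chr4:33273454-33273796 the values were 11.7 TPM in WT and 31.3 and 34.7 TPM in the Chd8-/- mice, and at chr7:16042543-16042702 they were 6.9, 26.6 and 31.7 TPM. Among the 10 peaks highest in the knockout, the WT level ran from 4.7 to 15.5 TPM, and the smaller log2 change from 1.04 to 2.04. No peak was in both groups of 10.

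Gained peaks were narrower and farther from other peaks than the average peak. Within deciles of WT level the order of the distances mostly turned, while that of the widths mostly held. Their median width was 260 bp, against 324 bp for all peaks considered and 378 bp for the 48196 peaks whose log2 change was within 0.4 in both mice, here called constant peaks. The median distance to the nearest other ATAC peak was 3.88 kb for gained peaks, 2.30 kb for constant peaks and 2.46 kb for all. The nearest peak was more than 50 kb away for 109 gained peaks (8.42%), compared with 2.70% of all peaks. The lowest decile of peaks by WT level, up to 3.0 TPM, held 1004 of the gained peaks (77.6%). In it, the median width was 257 bp for gained and 297 bp for constant peaks, and the median distance to the nearest peak was 5.31 kb for gained and 6.48 kb for constant peaks. The constant peaks of this decile included 320 with 0.0 TPM in WT. In the second decile, up to 4.3 TPM, the 158 gained peaks were wider than the constant ones (299 against 283 bp) and closer to another peak (1.75 against 6.49 kb). Gained peaks were narrower than constant ones in deciles 1 and 3 to 6, and wider in deciles 2, 7 and 8, of which the last 2 held 3 and 2 gained peaks.

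Gained peaks were found on each of the 19 chromosomes. Their share of the peaks on a chromosome ran from 1.08% on chromosome 15 (39 of 3608) and 1.18% on chromosome 11 (71 of 5993) to 2.36% on chromosome 4 (113 of 4793) and 3.09% on chromosome 14 (85 of 2747). Chromosome 14 is the one that carries Chd8, and the rule had already removed the part around it. In bins of 5 Mb with at least 50 peaks, the median share was 1.43% over 423 bins and 48 bins had none. The highest shares were on chromosome 4 from 60 to 65 Mb, with 22 of 177 peaks (12.4%), and among the 5 highest was chromosome 14 from 55 to 60 Mb, directly beside the removed part, with 22 of 255 (8.63%). Without chromosome 14, an alternative chosen after seeing the data, 1209 gained peaks were left.

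Peaks close to a gained peak leaned the same way. Of the 77929 peaks that were not gained, 30783 (39.5%) were higher than WT in both Chd8-/- mice by any amount. Of the 430 that lay within 2 kb of a gained peak, centre to centre, 81.6% were, with a median log2 change of 0.52 in each mouse. From 2 to 10 kb the share was 62.4% and the medians were 0.20 and 0.19, and at 200 kb or more it was 37.3% with medians of 0.00 and -0.01. The neighbours were measured in the same columns that chose the gained peaks, so the decline with distance is a description.

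**Figure D2:**
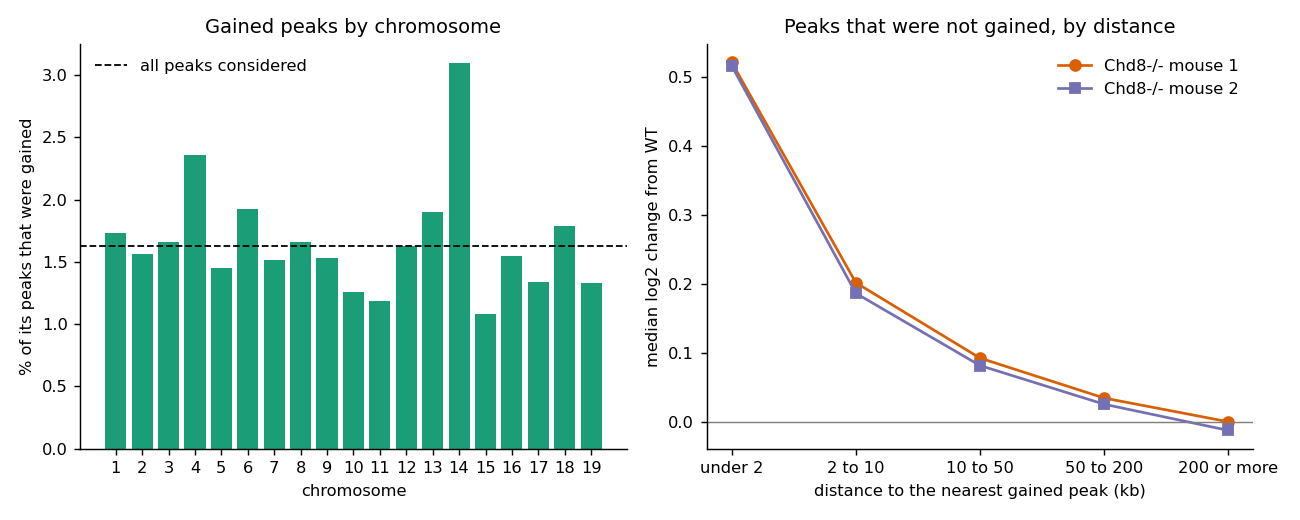
The left panel gives the percentage of the peaks on each chromosome that were gained, with a dashed line at the 1.63% of all peaks considered, and chromosome 14 (3.09%) and chromosome 4 (2.36%) stand highest. The right panel plots the median log2 change from WT of peaks that were not gained, for each Chd8-/- mouse, against their distance to the nearest gained peak in kb, and it falls from 0.52 in both mice under 2 kb to 0.00 and -0.01 at 200 kb or more.

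Some gained peaks stood in runs, a run being gained peaks each less than 50 kb from the next. The 1294 peaks formed 1063 runs, of which 902 were single peaks, 120 had 2 peaks and 14 had 4 or more. Runs of 2 or more held 392 gained peaks (30.3%). No CHIP-seq peak of CHD8 fell inside the 10 runs with the most gained peaks. These runs were short, 2.36 to 106 kb each, and over all ATAC peaks the median distance to the nearest CHIP-seq peak was 53.5 kb. How many CHIP-seq peaks other stretches of this size hold was not computed, so the count is only a description.

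The largest run, chr4:63755341-63861388, held 13 gained peaks among 32 peaks. Of the 19 other peaks in it, 18 were higher than WT in both mice and 1 was lower in both, with a median log2 change of 0.80. Its strongest gain was chr4:63774851-63774965, with 4.4 TPM in WT and 25.7 and 19.7 TPM in the Chd8-/- mice. At the other end of the run, chr4:63861260-63861388 had 5.0 TPM in WT and 21.4 and 16.3 TPM in the Chd8-/- mice. One of the peaks that only just missed the rule, chr4:63772064-63772398, also lay in it, with log2 changes of 1.07 and 1.00 (0.9972 before rounding). In all, 31 of the 32 peaks across the 106 kb were higher in both mice.

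The second largest run, chr17:29285057-29313034, held 6 gained peaks among 9 peaks over 28.0 kb. CHIP-seq peaks annotated to Cdkn1a stood on both sides of it, the nearest at chr17:29251195-29252004 and chr17:29487737-29488213. Within the run, chr17:29309853-29309976 changed most, from 2.0 TPM in WT to 14.1 and 19.8 TPM in the Chd8-/- mice, log2 changes of 2.40 and 2.86. The peak chr17:29299806-29299969 had 3.3 TPM in WT and 13.0 and 15.7 TPM in the Chd8-/- mice. The run ended in chr17:29312510-29313034, the most accessible of all gained peaks in the knockout, as described above. The 3 other peaks in the run were higher in both mice too, with a median log2 change of 0.45.

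**Figure D3:**
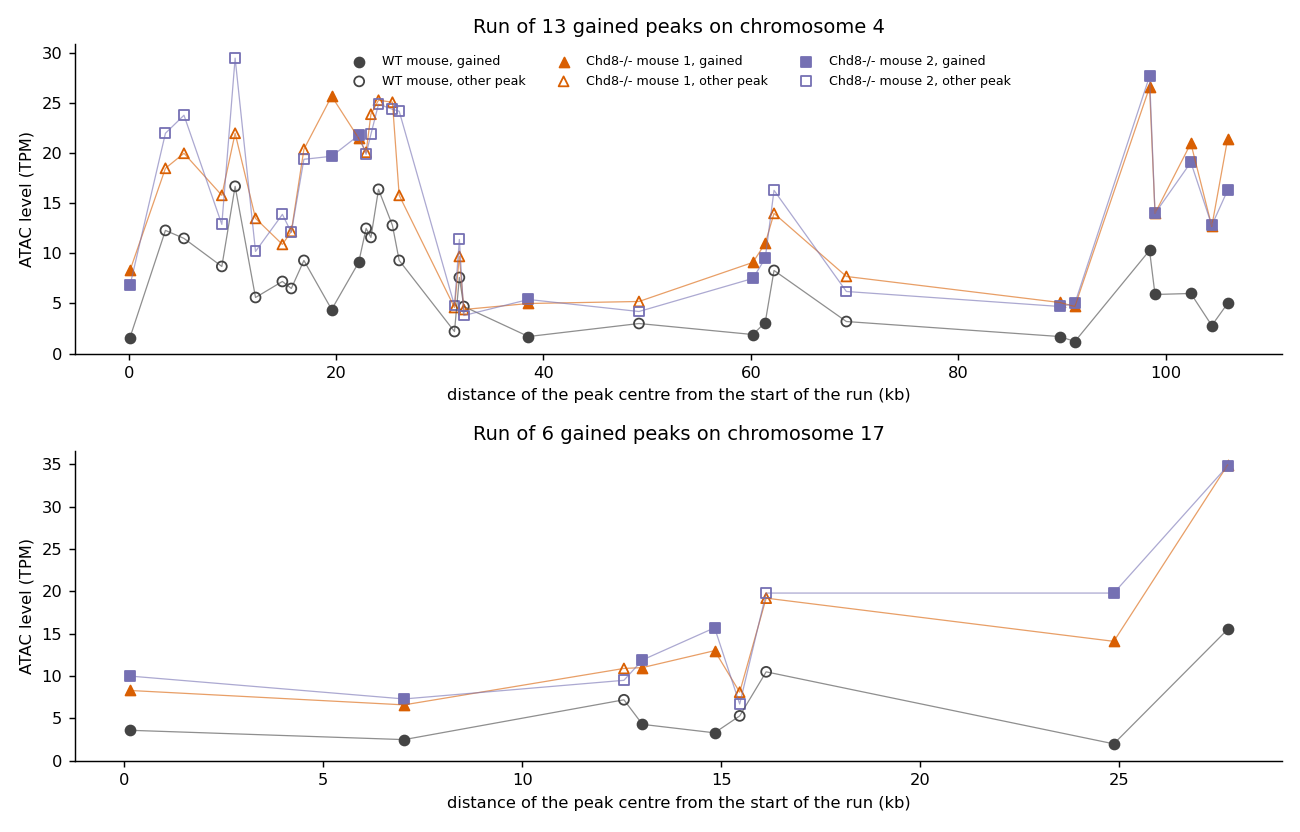
ATAC level in TPM of each peak in the WT mouse (grey circles), Chd8-/- mouse 1 (orange triangles) and Chd8-/- mouse 2 (purple squares) against the distance of the peak centre from the start of the run in kb, for the run of 13 gained peaks on chromosome 4 (top) and the run of 6 on chromosome 17 (bottom). Filled symbols are gained peaks and open symbols other peaks. Nearly all peaks of both runs lie above WT in both Chd8-/- mice, the exception being 1 peak on chromosome 4 that is lower in both.

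The other 8 of the 10 runs with most gained peaks spanned 2.36 to 84.7 kb, and the WT levels of their gained peaks ran from 0.3 to 7.2 TPM. A run at chr14:59146436-59155604 consisted of 5 peaks, all of them gained, with WT levels of 1.1 to 2.9 TPM. A run at chr6:128940012-128953480 held 5 gained peaks among 6, with WT levels of 0.8 to 3.1 TPM and median log2 changes of 1.61 and 1.64. At chr14:55046194-55048551, all 4 peaks within 2.36 kb were gained from WT levels of 0.3 to 0.7 TPM, and this run lay just outside the removed part of chromosome 14.

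A supplementary list of the paper gives CHIP-seq peaks by position for a few genes, far fewer than the CHD8 binding genes the paper reports. Pgk1, also in that list, is on chromosome X, outside the chromosomes considered, and was left out. For the other genes, gained peaks were counted from 50 kb before the first to 50 kb after the last such peak. They are set beside the 1.63% of all peaks that were gained and the 39.5% of the others that were higher in both mice. The windows were chr6:108586304-108686888 for Bhlhe40, chr17:29176569-29616952 for Cdkn1a, chr11:40533076-41830856 for Ccng1, chr2:34593813-35601844 for Hspa5 and chr5:21580022-22040372 for Fgl2. They differed widely in size, so counts are not compared between genes, and a peak in a window need not lie close to the gene. Bhlhe40, a transcription factor of activated and tissue Tregs, had 3 gained peaks among 12 in this window, and 11 of the 12 were higher in both mice. The strongest, chr6:108665192-108665892, had 5.2 TPM in WT and 18.9 and 16.7 TPM in the Chd8-/- mice, and chr6:108681714-108682092 had 3.4, 11.6 and 14.5 TPM. They belonged to a run of 4 gained peaks at chr6:108663010-108687864, which began 26.1 kb from the CHIP-seq peak. Cdkn1a had 6 gained peaks among 59, all in the run on chromosome 17, while 19 of the 59 were higher in both mice and 1 was lost. Ccng1 had 1 gained peak among 11, with 6 of the 11 higher in both mice. The gained peak was chr11:40606481-40606612, with 2.4 TPM in WT and 6.2 and 5.8 TPM in the Chd8-/- mice. The windows of Hspa5, an endoplasmic reticulum chaperone, and Fgl2, a suppressive factor secreted by Tregs, held 109 and 28 ATAC peaks and no gained peak. In these windows 31 of 109 and 5 of 28 peaks were higher in both mice, and 1 peak in the Hspa5 window was lost.

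The gained sites were rarely sites where CHD8 was detected by CHIP-seq. Of the 1294 gained peaks, 8 (0.618%, exact 95% binomial interval 0.267 to 1.21%, counting error only) overlapped 1 of the 6971 CHIP-seq peaks by at least 1 bp. The share was 10.6% of constant peaks (5129 of 48196), 0.249% of lost peaks (1 of 401) and 7.42% of all peaks. CHIP-seq peaks favour strong ATAC peaks, so the share was also read within deciles of WT level. In the lowest decile of peaks by WT level (up to 3.0 TPM), which held 1004 of the gained peaks, 6 of them (0.598%) overlapped a CHIP-seq peak, compared with 4.04% of constant peaks (76 of 1879). The 320 constant peaks with 0.0 TPM in WT all fell in this decile, as did the 3 such gained peaks. WT levels were thus not fully alike within it, and the overlap without these peaks was not computed. In the second decile it was 2 of 158 (1.27%) against 1.93% of constant peaks. The gained peaks above the second decile, from 4.4 TPM, had no overlap. They were few, 65 in decile 3, 36 in decile 4 and fewer in each higher one. Of the constant peaks, 1.50% overlapped in decile 3 and 1.39% in decile 4, so no overlap is near the background there. The difference between gained and constant peaks of like WT level thus rests mostly on the lowest decile.

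The share depends on the mouse and the scale. With mouse 1 alone deciding, 2.44% of the gained peaks (52) overlapped a CHIP-seq peak, and with mouse 2 alone 0.791% (17). With a pseudocount of 0.1 TPM it was 1.98% (49 of 2479). The median distance from a gained peak to the nearest CHIP-seq peak was 93.6 kb, against 46.2 kb for constant and 53.5 kb for all peaks. Of the gained peaks, 120 (9.27%) lay within 10 kb of a CHIP-seq peak, compared with 22.9% of constant peaks. Peaks are not independent replicates, so no p-value was computed for these shares.

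The 8 gained peaks at CHIP-seq peaks were all weak. Their WT level ran from 0.9 to 4.2 TPM and the smaller log2 change from 1.01 to 1.25. The most accessible was chr6:65755739-65756463, with 4.2 TPM in WT and 10.5 and 9.8 TPM in the Chd8-/- mice, and CHIP-seq levels of 132 and 116.5 TPM in the 2 mice. By the smaller of the 2 changes, the largest gain was at chr18:65714018-65714203, with 0.9 TPM in WT and 3.3 and 3.4 TPM in the Chd8-/- mice. Their mean CHIP-seq level was below the median of all CHIP-seq peaks in each case, at percentiles from 8.72 to 47.5. None of them lay in the 10 runs with most gained peaks, since these runs held no CHIP-seq peak.

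**Figure D4:**
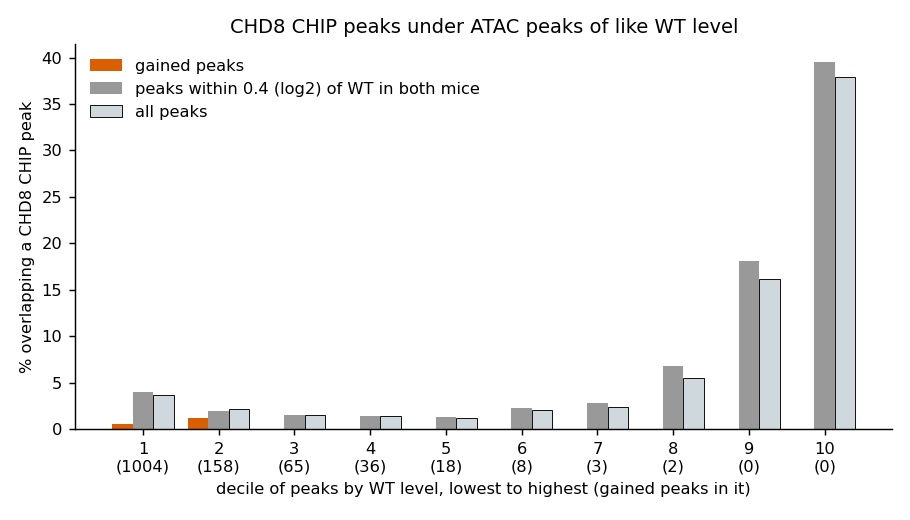
Percentage of ATAC peaks that overlap a CHD8 CHIP-seq peak by at least 1 bp (y axis) in each decile of the peaks by WT level (x axis, number of gained peaks in parentheses), for gained peaks (orange), constant peaks (dark grey) and all peaks (light grey). In the lowest decile 0.598% of gained and 4.04% of constant peaks overlap one, and the share of all peaks reaches 37.9% in the highest decile, where no peak was gained. The lowest decile includes 320 constant and 3 gained peaks with 0.0 TPM in WT.

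RNA came from other libraries than those that chose the peaks. Because genes could not be assigned to the gained peaks by position, the genes to which the authors had assigned ATAC peaks that were higher in Chd8-/- Tregs were used in their place, a choice made after seeing the data. This list was drawn by its authors from the same ATAC-seq libraries with a lower limit, and it is not matched peak by peak to the gained peaks. Of its genes, 760 were in the RNA table and 414 had at least 1 TPM in 2 or more libraries. In bulk RNA, fewer cells that express a gene and less RNA per cell cannot be told apart.

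A larger share of the listed genes than of all genes had more RNA in Chd8-/- libraries, a difference given without a test, and no single gene passed the test across genes. Of the 414, 67 (16.2%) were at least 2-fold higher on the log2(TPM + 1) scale, compared with 781 of all 15240 genes tested (5.12%), and 19 (4.59%) were at least 2-fold lower, compared with 1768 (11.6%). The median log2 change was 0.05 for the list and -0.15 for all genes. Both Chd8-/- libraries were above both WT libraries for 119 listed genes (28.7%), against 14.8% of all genes, and below them for 89 (21.5%), against 27.8%. In limma over all genes, 0 of 15240 genes (0%) passed an adjusted p of 0.05, while 79 of the listed and 1555 of all genes had an unadjusted p under it. Without genes on chromosomes 14, X and Y, 54 of 373 (14.5%) were at least 2-fold higher. With a pseudocount of 5 TPM, 39 of 414 (9.42%) were, against 2.38% of all genes. The genes listed with lower ATAC peaks went the other way, with 5 of 211 (2.37%) at least 2-fold higher and 41 (19.4%) at least 2-fold lower.

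Cdkn1a stood apart from the other listed genes. Its RNA was at 0.2 and 0.3 TPM in WT and 190.7 and 150.1 TPM in Chd8-/- libraries. It went from near absence to a high level in both, a log2 change of 7.09 ± 0.31 (SE, log2(TPM + 1) scale, limma adjusted p = 0.0807). With a mean of at least 5 TPM as the filter, it was the only listed gene past an adjusted p of 0.05. Bhlhe40 was at 47.0 and 52.5 TPM in WT and 155.0 and 131.0 TPM in Chd8-/- libraries, a log2 change of 1.50 ± 0.21. Ccng1, not in the list, was at 211 and 223 TPM in WT and 452 and 335 TPM in Chd8-/- libraries. In each of the 3 genes the genotypes did not overlap, and the adjusted p was 0.373 for Bhlhe40 and 0.430 for Ccng1 (limma).

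The p53 target genes held 7 of 26 members in the list, compared with 2.12% of all genes in the RNA table. Another 2 of the 26 were among the genes listed with lower ATAC peaks. The 26 genes were chosen with earlier results of these data known. The paper's text names Cdkn1a and Perp with higher and Sesn1 with lower ATAC peaks, so these counts were partly fixed in advance. The 7 were Cdkn1a, Perp (a membrane protein of p53-dependent death), Bbc3 (the proapoptotic protein PUMA), Phlda3 (an inhibitor of Akt), Zmat3 (a zinc finger RNA-binding protein), Eda2r (a death receptor family member) and Polk (a repair polymerase). Perp was at 0.0 and 0.5 TPM in WT and 17.7 and 15.1 TPM in Chd8-/- libraries. Zmat3 was at 24.4 and 17.8 TPM in WT and 68.3 and 36.7 TPM in Chd8-/- libraries. Phlda3 was uneven, with 0.6 and 0.0 TPM in WT and 30.1 and 3.7 TPM in Chd8-/- libraries. Bbc3 and Eda2r stayed at or below 1.7 TPM in all libraries, and Polk at 10.3 to 16.3 TPM. Of the 24 p53 targets tested, 6 were at least 2-fold higher (5.12% of all genes were), 1 was at least 2-fold lower (11.6% of all genes were) and 0 passed the adjusted p. The one 2-fold lower, Sesn1, a stress-induced sestrin, was at 159 and 166 TPM in WT and 59.8 and 33.2 TPM in Chd8-/- libraries, so the targets did not move as one. In their promoters, the p53 consensus was matched in Cdkn1a, Ccng1 and Gtse1 (a p53-inducible protein of G2 and S phase), 3 of 25 promoters in all, and in 2 of 838 promoters of the listed genes.

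Some genes of Treg and T cell state were in the list, which held 2.12% of all genes in the RNA table. It held 2 of 21 Treg identity genes, 4 of 25 effector Treg genes and 3 of 16 genes of naive and quiescent T cells. The genes listed with lower ATAC peaks included another 3 of the 25 and 1 of the 16. These genes too were chosen with earlier results known, and the paper's text names Bhlhe40 among genes with higher ATAC peaks. Ebi3, a subunit of the suppressive cytokine IL-35, was at 29.3 and 46.8 TPM in WT and 144 and 172 TPM in Chd8-/- libraries. Ccr8, a chemokine receptor of tissue Tregs, was at 26.8 and 49.4 TPM in WT and 101 and 86.2 TPM in Chd8-/- libraries. Il7r, the receptor for interleukin 7, was at 149.7 and 127 TPM in WT and 504.5 and 367 TPM in Chd8-/- libraries. In all 3 the Chd8-/- libraries lay above the WT ones, as they did in 14.8% of all genes tested, while in 27.8% they lay below. S1pr1, which guides exit from lymphoid tissue, lay the other way despite its higher ATAC peak, with 356 and 401 TPM in WT and 226 and 178 TPM in Chd8-/- libraries, and so did Lef1, a Wnt pathway factor of naive T cells, with 48.8 and 50.3 against 34.6 and 36.9 TPM. Nrp1, a semaphorin receptor of Tregs, overlapped between genotypes (100.1 and 107 against 115 and 87.3 TPM), and so did Il1rl1, the receptor for interleukin 33. Irf4, a factor of effector Treg differentiation, was at 59.4 and 67.3 TPM in WT and 70.8 and 90.6 TPM in Chd8-/- libraries. No gene of the lists of effector cytokines (23 genes) or AP-1, NR4A and EGR factors (20 genes) was among the listed genes, which at a share of 2.12% is near the background. Adjusted p values of these genes ranged upward from 0.373 (limma).

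Of 22 neuronal and adhesion genes of other lineages, 8 were listed, beside 2.12% of all genes in the RNA table. These 22 genes were chosen with earlier results of these data known. The paper's text names Dscam, Ryr2, Nfia, Map2, Dclk2 and Gpm6b among genes with higher ATAC peaks, so the count was partly fixed in advance. Dscam, a neuronal adhesion molecule, was at 0.8 and 1.7 TPM in WT and 4.1 and 5.5 TPM in Chd8-/- libraries. Map2, Foxa2 and, among B cell genes, Ebf1 stayed at or below 0.5 TPM in all libraries, too low to be tested. Rest, a repressor of neuronal genes, was at 43.2 and 56.3 TPM in WT and 55.1 and 74.7 TPM in Chd8-/- libraries, with overlap. The chromodomain helicase Chd9 was at 7.9 and 7.4 TPM in WT and 6.2 and 4.1 TPM in Chd8-/- libraries.

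Among the 20 listed genes with the largest RNA difference and at least 5 TPM in a genotype, 17 were higher and 3 lower in Chd8-/- libraries. Tnfsf4, the ligand OX40L, was at 4.3 and 3.1 TPM in WT and 35.1 and 52.1 TPM in Chd8-/- libraries. Penk, the precursor of enkephalin, was at 100.8 and 80.5 TPM in WT and 442.5 and 572 TPM in Chd8-/- libraries. Scin, an actin-severing protein, was at 0.8 and 0.0 TPM in WT and 19.2 and 22.8 TPM in Chd8-/- libraries, and Epas1, a hypoxia-inducible factor, at 2.0 and 2.1 against 17.4 and 62.5 TPM. Mtmr9, a phosphatase family member, was at 26.4 and 34.8 TPM in WT and 264 and 141 TPM in Chd8-/- libraries, and Rnf212b, a meiotic ring finger gene, was listed at 0.0 TPM for WT and had 17.8 and 16.2 TPM in Chd8-/- libraries. The 17 also included Gm15987, Gm15918, Perp, Phlda3, Cetn4 (a centrin), Afap1l1 (an actin-associated protein), Ctla2a (a cathepsin inhibitor), Gm41198, Gm3164 and Tnc (tenascin C). Gm10847, Gm30392 and 4930583I09Rik were lower, Gm10847 with 79.5 and 118 TPM in WT and 3.8 and 11.4 TPM in Chd8-/- libraries.

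**Figure D5:**
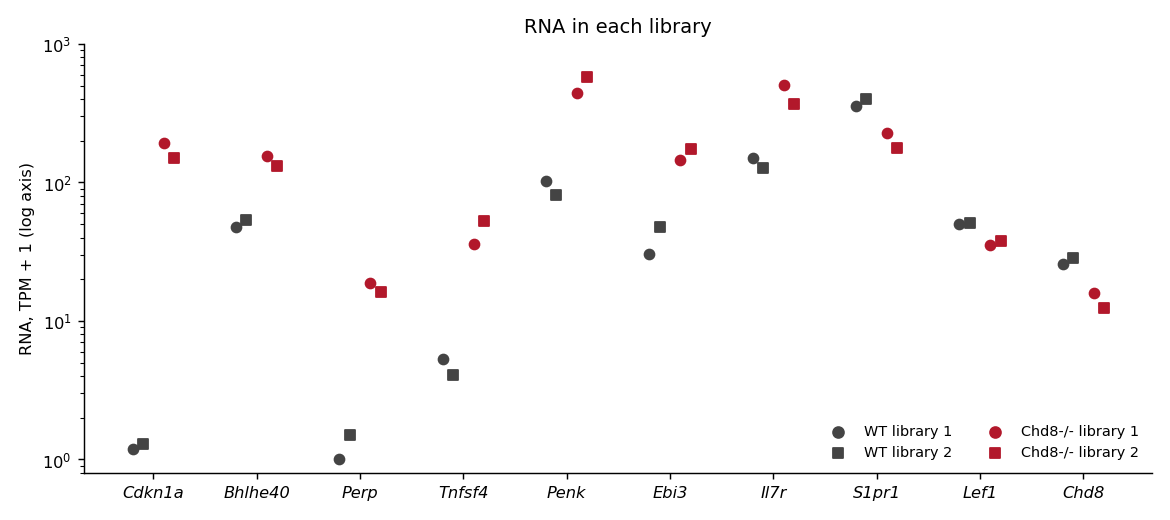
RNA level (TPM + 1, log axis) of 9 genes named in the text and of Chd8 in each of 2 WT (grey) and 2 Chd8-/- (red) libraries, where circles are library 1 and squares library 2. The genes were picked for display, and named genes that overlap between genotypes, such as Nrp1, Il1rl1 and Rest, are not shown. In those shown, S1pr1, Lef1 and Chd8 are lower and the other 7 higher in Chd8-/- libraries, without overlap. Of all genes tested, 14.8% had both Chd8-/- libraries above both WT libraries and 27.8% had both below.

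One Chd8-/- RNA library held more RNA of other blood cells. In Chd8-/- library 2, the summed level of 9 erythroid genes was 2028 TPM, against 18.4 TPM in Chd8-/- library 1 and 362 to 403 TPM in WT, and 7 of the 9 were highest there. The sum of 15 myeloid genes was 2216 TPM, against 334 TPM in library 1 and 492 to 623 TPM in WT, with 11 highest there. That of 10 B cell genes was 1018 TPM, against 138.5 TPM and 192 to 249 TPM, with 7 highest there. H2-Aa (603.6 TPM) and Cd74 (268.5 TPM) made up most of this sum, while Cd79b (8.9 TPM) and Fcer2a (1.8 TPM) were lowest in library 2. In library 1, Hba-a2, Hbb-bs, Hbb-bt, Klf1, Spi1, Fcer1g and Pax5 were listed at 0. CD8 and NK cell genes summed to 117 and 78.2 TPM in Chd8-/- and 117 and 85.7 TPM in WT libraries. None of the 9 erythroid, 15 myeloid or 11 CD8 and NK genes was in the list of genes with higher ATAC peaks. That list held 2.12% of all genes in the RNA table, so none is near the background for lists of this size. Of the 11 B cell genes 2 were listed, Ebf1 and Cr2 (2.3 and 2.1 TPM in WT, 3.7 and 3.3 TPM in Chd8-/-). Without library 2, 78 of the 414 listed genes (18.8%) were at least 2-fold higher, against 6.49% of all genes.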

How the data were processed

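ATAC-seq, CHIP-seq and RNA-seq of mouse Tregs were deposited as 3 tables of TPM values. Per the methods, the authors used HISAT2 to align ATAC-seq and CHIP-seq reads to mm39, discarded duplicate reads, ran MACS2 2.2.7.1 for peak calling, kept peaks seen in both duplicates with at least 50% overlap, took the union over samples and counted reads with featureCounts 1.5.3. A peak absent in WT therefore had to be called in Chd8-/- Tregs. RNA-seq was aligned to mm10 with STAR 2.6.1e and counted with featureCounts 1.6.2, and counts became TPM. CHIP-seq with control IgG was not analysed here, and 1 B cell marker is not reported here. By label all samples were from spleen.

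The rule, runs and overlaps were computed in Python 3.11.15 with pandas 2.3.3 and bedtools 2.31.1, and shares of CHIP-seq overlap have exact binomial intervals. RNA was tested with limma 3.58.1 in R 4.3.3 (lmFit and eBayes with trend, two-sided) on log2(TPM + 1) over genes with at least 1 TPM in 2 libraries, with Benjamini-Hochberg adjustment over all of them. Names occurring more than once (4 rows) were left out. Both steps were tested on simulated data. Per the study's legends, each RNA genotype comprised 1 male and 1 female mouse. Which library came from which is not given in the sources used here, so sex was not a term in the fit. The planned assignment of genes and reading of sequences by position were not done, since the reference was GRCm38.p6: 6.14% of CHIP-seq peaks lay within 1 kb of its start sites.

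Regions named are the 10 gained peaks with the largest smaller log2 change, the 10 highest in Chd8-/- mice, those at CHIP-seq peaks and the runs with most gained peaks. Genes named are the 20 listed genes with at least 5 TPM in a genotype and the largest RNA change, listed members of the gene lists, and the genes whose CHIP-seq peaks are given in a supplementary list of the paper. The gene rule was applied to the authors' list in place of genes near the peaks, and its part on genes with most gained peaks was left out. The peaks, gene lists and tests were chosen with earlier results of these data known. Peaks at the threshold, the neighbours, Sesn1 and Gtse1 were chosen after their values were seen.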

Additional observations from a re-analysis of the deposited data

How the results depend on the processing

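Of 1294 gained peaks, a pseudocount of 0.1 TPM gave 2479, the median ATAC value as pseudocount 19, quantile normalization 615, and a mean at or above the median 188. Leaving out each Chd8-/- mouse gave 2135 to 2150. Centring gave 1247 and all chromosomes 1370. The cause of these differences was not tested. The share at CHIP-seq peaks, 0.618%, was 1.98% with a pseudocount of 0.1 TPM, 0% (0 of 19) with the median as pseudocount, 0.163% (1 of 615) after quantile normalization, 0.791 to 2.44% with a mouse left out, and 0.618% with 50% of the ATAC peak covered. The smaller log2 change of the 20 named regions stayed above 0 in all 80 recomputed values and at least 1 in 71 of them.

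For RNA, 39 listed genes were at least 2-fold higher with a pseudocount of 5 TPM, against 67, and with the filter of a mean of at least 5 TPM 1 listed gene, Cdkn1a, and 2 of all genes passed the adjusted p. The other filters, scalings and lists gave 47 to 83. Leaving out each library gave 72 to 83, with 0 past the adjusted p. With the replicate number as a block, 67 listed genes were 2-fold higher and 0 passed the adjusted p, and the deviations of same-numbered libraries had a correlation of -0.01 over 2 pairs, so the numbers were not taken as pairs. The pairing by sex was not tested, since the sex of each library is not given in the sources used here. Named genes kept their direction in 463 of 470 recomputed values. Windows of 10 and 100 kb around start sites, gene lists from centred changes or another ATAC pseudocount, and whole-peak sequences could not be run without an annotation of mm39. No alternative without the WT mouse exists, since it is the only WT column. TPM keep no depth, so counting error behind weak peaks is unknown.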

Other observations

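Peaks outside the chromosomes considered were counted with the same limits. In the part of chromosome 14 from 40 to 55 Mb, 50 of 577 peaks (8.67%) were at least 2-fold higher in both Chd8-/- mice and 74 (12.8%) at least 2-fold lower. On chromosome X, 26 of 1951 peaks (1.33%) were higher and 0 lower, and the Chd8-/- mice were a male and a female while the WT mouse was a male. On chromosome Y, 0 of 46 peaks met either limit, and the same held for the 3 peaks of the mitochondrial genome.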
